A study of Mus musculus with 2 samples.

Results

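Keratins are the intermediate filament proteins of epithelial cells. They form obligate pairs of a type I (acidic) and a type II (basic) chain, and keratin-associated proteins (Krtap) embed hair keratin filaments in the hair shaft. In the mouse nearly all type I genes lie together with many Krtap genes, the type II genes lie together elsewhere, and further Krtap genes form clusters of their own. CTCF is a zinc finger protein that binds DNA through a directional motif and, with cohesin, anchors chromatin loops and borders of chromatin domains. The genes described here are the protein-coding genes whose symbol starts with Krt and a digit, or with Krtap. They number 110 of 21938 protein-coding genes on the 21 main chromosomes: 28 type I genes, 25 type II genes and 57 Krtap genes. All 110 fell into 6 clusters of members under 300 kb apart.

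CTCF binding was profiled by chromatin immunoprecipitation and sequencing in limb tissue of B6NCrl mouse embryos, both sexes together, at embryonic day 14.5. The series holds 2 libraries in 1 group, made from a single pool of pulverised limbs from several dissections, so the spread between the replicates may be technical and no comparison between groups of samples could be tested. Whole limbs hold skin as 1 tissue among others, and a site bound in few cells cannot be told apart from a weakly bound site. The main peak set, called the optimal list, held 49959 peaks on the main chromosomes, with a median signal of 58.4 and 10% of peaks above 238.4, and a CTCF motif at 82.9% of peaks. Signal is the authors' enrichment value per peak, in units that the sources used here do not give. Read depth is unknown. Shares are given with exact (Clopper-Pearson) 95% binomial intervals, which cover counting error only, and neighbouring genes are not independent of each other.

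The strongest peak in or around the type I cluster and 3 strong peaks of the type II cluster are shown first, as examples of strong sites. Each is given as 60 bases around the motif on the strand of the motif, 5′ to 3′, GRCm38 (mm10). The 20 bases that match the CTCF matrix are in capitals. The first lay past Krt42 at the end of the type I cluster (reverse strand, chr11:100295473-100295532), the second ahead of Krt80 at the start of the type II cluster (forward strand, chr15:101339707-101339766). The third was the strongest site within any of the 6 clusters, between Krt78 and Krt8 (reverse strand, chr15:101984488-101984547), and the fourth lay past Krt18 (reverse strand, chr15:102065797-102065856).
past Krt42: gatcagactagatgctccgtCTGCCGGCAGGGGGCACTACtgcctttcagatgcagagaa
ahead of Krt80: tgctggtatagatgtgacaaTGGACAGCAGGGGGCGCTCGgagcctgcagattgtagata
between Krt78 and Krt8: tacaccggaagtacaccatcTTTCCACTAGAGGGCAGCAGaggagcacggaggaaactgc
past Krt18: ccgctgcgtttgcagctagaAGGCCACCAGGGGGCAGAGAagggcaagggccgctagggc
The signals of these 4 sites were 471, 306, 332 and 361 in the order printed. The motifs of the 3 sites outside the clusters pointed towards the keratin genes. That of the strongest peak ahead of Krt222, with a signal of 392, pointed away from them. Over all flanks 28 motifs pointed into a cluster and 22 away from it.

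Keratin and Krtap promoters were rarely bound by CTCF. An optimal summit lay within 1 kb of a transcription start site (TSS) at 0 of 28 type I genes (interval 0 to 12.3%), 2 of 25 type II genes (8.0%, 0.984 to 26.0%) and 0 of 57 Krtap genes (0 to 6.27%), against 33.4% of all coding genes. From either replicate alone, or from the conservative list, 1 of 25 type II genes (4%) was bound. Over all 110 members the share was 1.82% (0.221 to 6.41%). With the first TSS alone it was again 2 of 110, against 26.1% of all coding genes. The 2 bound genes were Krt8, which with its partner Krt18 forms the filaments of simple epithelia, and Krt87, a type II gene of the hair keratin group. The Krt8 summit (chromosome 15, 102004461) lay 21 bp from a TSS, in the 5′ untranslated region, with a pooled signal of 20.1 and replicate signals of 10.1 and 10.05. The Krt87 summit (101439129) lay 325 bp from a TSS, with a pooled signal of 20.2 and replicate signals of 13.7 and 5.60. Both values were below the first quartile of optimal peaks, 29.8, and neither summit had a CTCF motif within 50 bp.

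**Figure D1:**
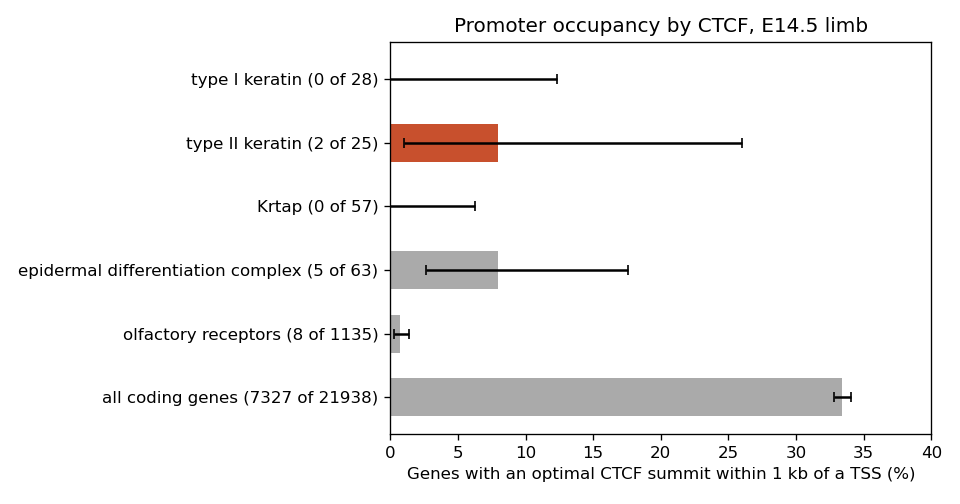
The bars give the share of genes (%) with an optimal CTCF summit within 1 kb of any TSS, for the 3 groups of keratin genes, for 2 other clustered gene families and for all coding genes, with exact 95% binomial intervals as lines. The type I and Krtap groups are at 0, type II genes at 8.0% and all coding genes at 33.4%.

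A second set of members had summits just beyond this distance. Krtap5-1 had the nearest, 1491 bp from a TSS (signal 47.6), followed by Krt7, a keratin of simple and ductal epithelia, at 1658 bp (50.3), Krt10, a keratin of the suprabasal epidermis, at 1717 bp (26.5) and Krtap14 at 1908 bp (81.4). Within 5 kb of a TSS there were summits at 2 type I, 6 type II and 5 Krtap genes, 13 of 110, against 52% of all coding genes. The full replicate lists, which hold 300000 summits each and reach far below the optimal list, placed a summit within 1 kb in both replicates at 7 type I, 7 type II and 0 Krtap genes, against 61.2% of all coding genes. The type II genes among them included Krt1, Krt4, Krt5 and Krt79, and the type I genes Krt10, Krt13, Krt15 and Krt19. Krt1 and Krt2, keratins of the differentiating epidermis, had their nearest optimal summit at 10139 and 16899 bp, and Krt12, the cornea keratin, at 8812 bp. Krtap1-3 and Krtap1-4 had theirs at 17015 and 9330 bp.

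The 3 groups differed in how far they lay from CTCF sites. The median distance from a TSS to the nearest optimal summit was 15531.5 bp for type I genes, 5993 bp for type II genes and 23459 bp for Krtap genes, against 4176 bp for all coding genes. Counted over 100 kb on either side of the first TSS, the median number of summits was 6.5 for type I, 11 for type II and 2 for Krtap genes, against 6 for all coding genes. Type II genes thus had more CTCF sites around them than the typical coding gene, but rarely at the promoter. The farthest member was Krtap20-2, with its nearest summit 267403 bp away. The members are short, with median lengths of 5607 bp for type I, 7795 bp for type II and 892 bp for Krtap genes, against 17425 bp for all coding genes, and they have a median of 1 annotated TSS against 3. A gene with fewer start sites has fewer places where a summit can be counted.

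The members' promoters were poor in CpG dinucleotides. The median ratio of observed to expected CpG within 500 bp of the first TSS was 0.310 for type I, 0.302 for type II and 0.166 for Krtap genes, against 0.552 for all coding genes, and it was below 0.4 at 96 of 110 members. In that class 1 of 96 members was bound at any TSS (1.04%), against 13.7% of 8689 other coding genes. Among genes with a single annotated TSS in that class, 1 of 75 members (1.33%) and 4.10% of 2925 other coding genes were bound. CpG content, the number of start sites and promoter binding moved together over these genes, and the part of each in the members' low share was not tested. A strong CTCF motif match (15.3 bits or more, both strands) lay within 1 kb of the first TSS at 0 type I, 2 type II and 0 Krtap genes, against 6.26% of all coding genes. The 2 were Krt8, where the match lay outside the window scanned at the summit, and Krt73, which was not bound.

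Other epithelial genes were bound at shares nearer to the 33.4% of all coding genes. Among regulators of epithelial fate such as Trp63, Grhl3 and Klf4, 6 of 14 were bound (42.9%, interval 17.7 to 71.1%), and among adhesion and cornified envelope partners of keratins such as Dsp, Jup and Tgm1, 6 of 16 (37.5%, 15.2 to 64.6%). With the first TSS alone the regulators had 2 of 14 (14.3%), against 26.1% of all coding genes, and the partners 5 of 16 (31.2%). Of other intermediate filament genes, which include Vim and Des, 7 of 14 were bound (50%). The epidermal differentiation complex, the other large cluster of epidermal genes, had 5 of 63 (7.94%, interval 2.63 to 17.6%), and the olfactory receptors, a clustered family of sensory genes, 8 of 1135 (0.705%). The 2 clustered families lay nearer to the members than to all coding genes in this share.

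Pooled over the 6 clusters, CTCF peaks were sparser inside than in the 100 kb on either side. Together the 6 clusters held 80 optimal peaks in 2949.3 kb, 2.71 per 100 kb, and their 100 kb flanks held 61 peaks in 1200 kb, 5.08 per 100 kb, a ratio of 0.534. The genome as a whole held 1.83 per 100 kb, less than either pooled value, but the clusters on chromosomes 16 and 1 and their flanks were each below it. Pooled over clusters, peaks inside were weaker than those in the flanks. The median signal was 56.2 (quartiles 31.7 and 123.1) inside and 77.8 (41.9 and 221.0) in the flanks. The inside median was close to the 58.4 of all optimal peaks, and the flank median lay above it. In the 4 clusters of Krtap genes alone the medians were 47.6 inside and 52.4 in the flanks. The chromosome 7 cluster went the other way, with 82.7 inside and 47.3 in the flanks, and the chromosome 1 cluster had no inside peak. Peaks in the strongest 10% of the genome made up 7 of 80 inside (8.75%) and 14 of 61 in the flanks (22.95%). The type II cluster held 6 of the 7 inside, 17.1% of its inside peaks, and the type I cluster held 1. Of the 14 in the flanks, 6 were beside the type I cluster and 5 beside the type II cluster. A motif was present at 68 of 80 peaks inside (85.0%) and at 50 of 61 in the flanks (82.0%). Of all 141 peaks, 138 had a summit within 100 bp in both full replicate lists.

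**Figure D2:**
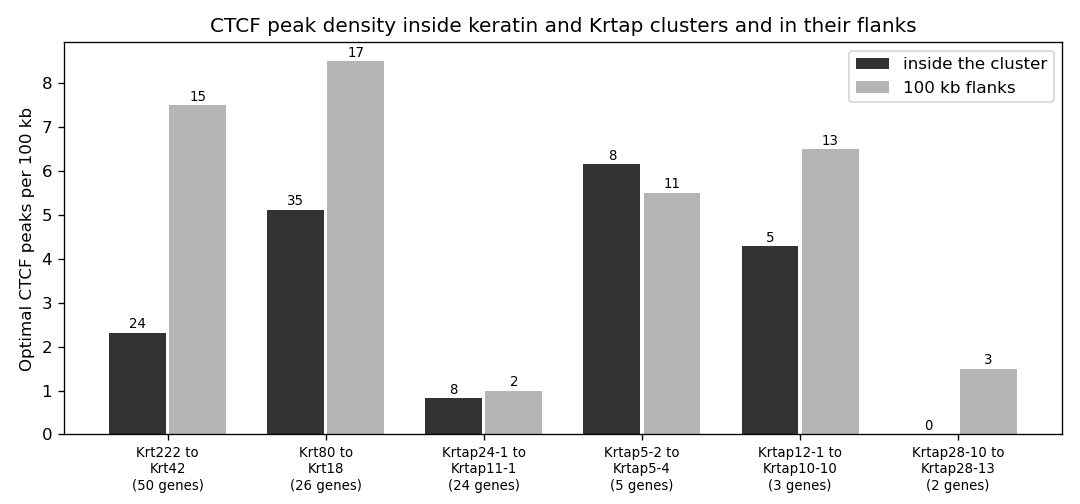
The bars give optimal CTCF peaks per 100 kb inside each of the 6 clusters and in its 100 kb flanks, with the number of peaks above each bar. Density inside was below that of the flanks in 5 of 6 clusters, all but Krtap5-2 to Krtap5-4. Of these 5, the chromosome 1 cluster is only 20.4 kb long and held 0 peaks. The chromosome 16 cluster had only 2 flank peaks, 0 of them past Krtap11-1.

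Density was then followed across the cluster ends. In bins of 25 kb over the 12 cluster ends, the density outside was between 4.33 and 6.00 peaks per 100 kb. Inside it was 4.81 in the first bin, 5.60 in the second and 4.58 in the third, and 2.67 between 75 and 100 kb. Zones of 20 kb on each side of the outer gene ends held 20 peaks (4.34 per 100 kb), and the interior beyond them 71 (2.60 per 100 kb). The median signal was 40.9 in the first 25 kb inside and 96.6, the highest of all bins, in the last 25 kb outside. Farther out it was 58.8, 59.0 and 85.1, and farther in 39.3, 86.8 and 50.1. The medians thus showed no steady trend across the edge. Few peaks stand behind each bin, from 4 to 18, and the innermost bin holds only the 3 clusters long enough to reach it, on chromosomes 11, 15 and 16. In the type II cluster the order was the other way, with 3.75 peaks per 100 kb in the edge zones and 5.27 in the interior.

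The type I cluster on chromosome 11 ran from Krt222 to Krt42 (99232761 to 100269871, 1037.1 kb) and held 27 type I and 23 Krtap genes. Its 24 inside peaks (2.31 per 100 kb) were not spread evenly. The first block of 12 type I genes, Krt222 to Krt40, had 15 peaks in 310.4 kb (4.83 per 100 kb). The Krtap block, Krtap3-3 to Krtap17-1, had 2 peaks in 443.9 kb (0.451 per 100 kb) for 23 genes. The second block of type I genes, Krt33a to Krt42, which holds Krt14, the basal keratinocyte keratin, had 5 peaks in 258.7 kb (1.93 per 100 kb). The longest stretch without a peak was 279.9 kb long, lay in the Krtap block and held 13 genes, Krtap1-5 to Krtap4-16.

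Strong sites of this cluster stood within its blocks, in a gap between them and past its ends. In the first type I block, 2 neighbouring peaks between Krt20 and Krt23 had 238.1 (122 and 117 in the replicates) and 215 (105 and 109). The gap between Krtap17-1 and Krt33a held 2 peaks with signals of 189 and 47.3, and the start of the Krtap block held 1 between Krtap3-1 and Krtap1-5 with 229 (115 and 114 in the replicates). The strongest inside peak, 241 (126 and 115), lay in the second type I block between Krt19 and Krt9 (summit 100169198). Past Krt42 stood 2 neighbouring peaks at 12319 and 12914 bp with 357 and 187, followed by the 471 peak at 25660 bp, whose replicate signals were 244 and 228. Peaks of 266 and 258 followed within 5 kb of it. Ahead of Krt222 the strongest was 392 (209 and 187), in an intron of the chemokine receptor gene Ccr7, and the nearest, at 25482 bp, had 49.3. The strong group past Krt42 thus stood closer to the keratin genes than any strong site at the other end.

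**Figure D3:**
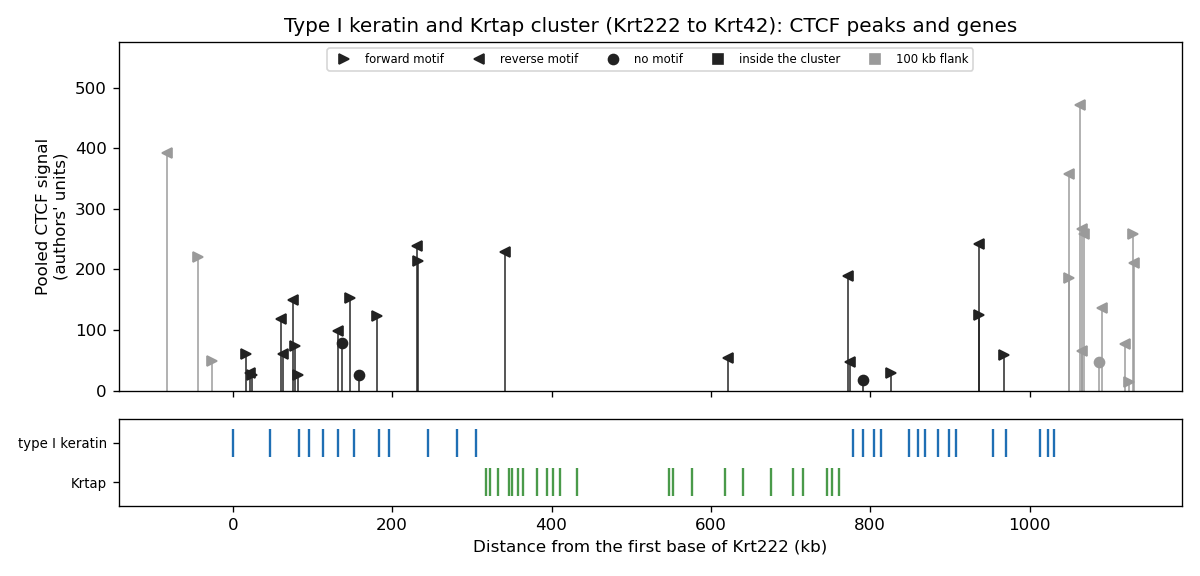
Upper panel, pooled CTCF signal of each optimal peak (authors' units) against distance from the first base of Krt222 (kb), with markers for the direction of the motif and grey for the 100 kb flanks. Lower panel, the start of each type I and Krtap gene. The block of 23 Krtap genes holds 2 peaks, and the tallest peak, 471, stands past Krt42.

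The type II cluster on chromosome 15 ran from Krt80 to Krt18 (101347444 to 102032027, 684.6 kb) and held all 25 type II genes and Krt18, the type I partner of Krt8. It had 35 inside peaks (5.11 per 100 kb) and 17 in its flanks (8.5 per 100 kb), with median signals of 50.2 inside and 93.0 in the flanks. The peaks were more evenly spread than in the type I cluster: the longest stretch without a peak was 71.5 kb long and held Krt6b and Krt6a, the stress-induced keratins. The strongest peaks inside formed a group in the 42.4 kb between Krt78 and Krt8, with signals of 181, 323, 284, 332, 298 and 20.3 in the order along the chromosome. Of the 103 intervals between neighbouring members, 73 held no peak and 4 held a peak of the strongest 10%. The intervals without a peak were shorter, with a median length of 9.17 kb against 30.1 kb for those with a peak. The Krt78 to Krt8 interval had the highest summed signal, 1439.5. Krt8 and its type I partner Krt18 lay past this interval. All other type II genes lay ahead of it, among them Krt7, also a keratin of simple epithelia. The Krt8 to Krt18 gap held 1 peak, with 40.5 (18.4 and 25.7).

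Further sites of the type II cluster stood among the hair and root sheath keratins. A peak of 262 (132 and 128) without a motif lay 5805 bp from the Krt72 TSS, and 1 of 251 (130.0 and 120.1) lay between Krt83 and Krt84. At the Krt80 end, peaks of 301, 264, 252 and 306 stood 63490, 31473, 20008 and 7710 bp outside the cluster, and the nearest, at 5477 bp, had 82.9. Past Krt18 the 361 peak stood at 33824 bp (184 and 180.5 in the replicates), with a weaker one of 38.1 at 20157 bp. Strong sites therefore stood on both sides of the type II cluster, on the Krt18 side both within and beyond it.

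**Figure D4:**
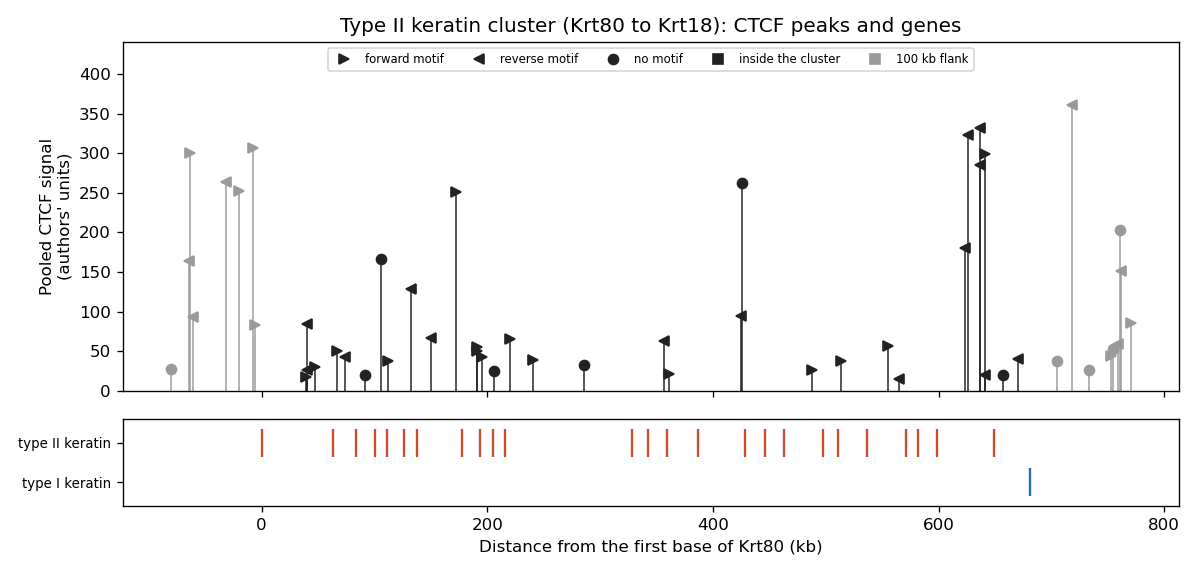
Upper panel, pooled CTCF signal of each optimal peak (authors' units) against distance from the first base of Krt80 (kb), with markers for the direction of the motif and grey for the 100 kb flanks. Lower panel, the start of each gene. The group of strong peaks ahead of Krt8, up to 332, stands inside the cluster, and the 361 peak stands past Krt18.

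The Krtap clusters apart from the keratins ranged from nearly empty to dense. The cluster on chromosome 16, Krtap24-1 to Krtap11-1 (88610705 to 89571183, 960.5 kb, 24 genes), held 8 peaks (0.833 per 100 kb), the strongest 134 (66.6 and 67.2), and 2 in its flanks (1.0 per 100 kb). A stretch of 579.4 kb without a peak covered 60.3% of it and 10 genes, Krtap16-3 to Krtap7-1. No part of that stretch is an assembly gap, 38.4% of it is repeat-masked, and the full lists placed 31 summits there in replicate 1 and 19 in replicate 2, 5.35 and 3.28 per 100 kb, against 11.003 and 11.004 genome-wide. Krtap genes include near-identical copies, and the sources used here do not say how reads from such copies were placed. The 5 genes of the chromosome 7 cluster, Krtap5-2 to Krtap5-4 (142174535 to 142304594, 130.1 kb), held 8 peaks (6.15 per 100 kb) against 11 in the flanks (5.5 per 100 kb). All 8 lay between Krtap5-5 and Krtap5-1. A stretch of 75.5 kb without a peak covered 58.0% of the cluster and 3 genes, Krtap5-2 to Krtap5-5. All 7 motifs inside this cluster were on the reverse strand. Its flanks held 1 peak of 294 and 1 of 339, the second in an intron of Ifitm10.

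The 2 smallest clusters held few peaks. The 3 genes of the chromosome 10 cluster, Krtap12-1 to Krtap10-10 (77720599 to 77837252), share 116.7 kb with 5 peaks (4.29 per 100 kb), all of them in the body of Tspear, and the strongest had 98.4 (50.1 and 49.0). Its flanks held 13 peaks (6.5 per 100 kb), led by 341 in an intron of Ube2g2. The 2 genes on chromosome 1, Krtap28-10 and Krtap28-13 (83041524 to 83061921), had no peak in 20.4 kb and 3 in the flanks, the strongest 216. Across all 6 clusters, none of the 54 other coding genes with a first TSS inside had a bound promoter. In the flanks 9 of 38 did (23.7%), against 33.4% of all coding genes. The symbols of the 54 start with Gm or end in Rik, and whether they belong to these gene families was not tested.

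The clusters were also compared with the 2 other clustered families by the same rule. The 2 clusters of the epidermal differentiation complex held 2.996 peaks per 100 kb inside and 3.75 in the flanks, a ratio of 0.799. The 47 olfactory receptor clusters held 0.460 inside and 3.05 in the flanks, a ratio of 0.151. The keratin clusters, at 0.534, lay between both. The number of each family's own genes per 100 kb was alike, 3.73 in the keratin clusters, 3.77 in the epidermal complex and 3.74 in the olfactory receptor clusters. Other coding genes within the clusters, 54 in the keratin clusters, are not in these counts.

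The direction of the motifs was counted from the strand of the strongest match within 50 bp of each summit. In the flanks 28 motifs pointed into the cluster and 22 away from it, and inside 44 pointed towards the cluster's middle and 24 away. The inside counts differed by cluster: 19 and 10 in the type II cluster, 7 and 0 on chromosome 7, but 11 and 10 in the type I cluster. On chromosomes 16 and 10 they were 5 and 3, and 2 and 1. Among pairs of motif-bearing peaks under 3 kb apart, 5 of 25 were convergent, 15 tandem and 5 divergent (20%, 60% and 20%), against 20.04%, 55.4% and 24.6% in the genome.

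A group of type II peaks lay inside coding sequence. Of the 14 peaks in the bodies of members, 9 lay in coding exons, all of type II genes. That was 9 of the 35 peaks inside the type II cluster (25.7%), against 0 of 24 inside the type I cluster. Over all optimal peaks the share was 3.71%. How much of the clusters and of the genome is coding sequence was not computed, so the shares are not corrected for it. The summit lay in a gene body at 2 of 28 type I, 10 of 25 type II and 2 of 57 Krtap genes, against 48.8% of all coding genes. The strongest of the 9 were at Krt88 (166, no motif) and Krt86 (129). The others ran from 21.1 at Krt5, which had no summit within 100 bp in replicate 2, to 65.5 at Krt75. The Krt90 peak (25.1) also had no motif.

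An exon site was shared by the closely related hair keratin genes Krt81 and Krt86, in coding exon 9 of 9 and antisense to the gene. Krt81 had a signal of 37.5 (17.9 and 19.5 in the replicates) and Krt86 of 129 (69.9 and 58.7). They are shown because the central bases match in both, each on the strand of its motif (forward for Krt81, reverse for Krt86) with the CTCF match in capitals.
Krt81 (chr15:101459463-101459502): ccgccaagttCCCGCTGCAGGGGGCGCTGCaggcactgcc
Krt86 (chr15:101479447-101479486): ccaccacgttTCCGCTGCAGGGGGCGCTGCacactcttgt
The replicate values of the 2 genes do not overlap, but they come from 2 libraries of a single pool. The sources used here do not say how reads from such alike sequences were placed.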

How the data were processed

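CTCF peaks were taken from the deposited narrowPeak lists on mm10 (GRCm38). The signal is the deposited value per peak on the authors' own scale. Per the deposited notes in the labels, the optimal list derives from both replicate lists and a pooled list. The sources used here do not give the aligner, peak caller, control or thresholds. The members, gene lists and named items were chosen with earlier results of these data known. Named items are the genes with a bound promoter, the first 2 unbound members by symbol in each group, and for each cluster its outer genes, strongest and nearest peaks and longest stretch without a peak. Other items were chosen after their values were seen.

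Summits were compared with GENCODE M21 starts. A peak's replicate signal came from the closest summit of each full replicate list, at most 100 bp away. The motif matrix of 20 bases was refined in 10 rounds on 1000 strong peaks, and its threshold was the score that 5% of windows 1000 bp away reached. Computations used Python 3.11.15, pandas 2.3.3 and pysam 0.24.0. The motif and promoter steps were tested on simulated data. No test between groups was run, since there is 1 group. The alternatives were another list, other windows, gaps, flanks and edge zones and a single replicate. Sequences of some exon sites are not reported here.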

Additional observations from a re-analysis of the deposited data

How the results depend on the processing

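The inside to flank density ratio stayed below 1 and the flank median stayed above the inside median in the main setting and in all 9 other settings. Some of the 9 could differ little or not at all. Genes under 500 kb apart gave the same 6 clusters and peaks as the main setting. Genes under 150 kb apart left both medians unchanged, and the other flank lengths left the inside median unchanged. The ratio of 0.534 was 0.456 with the conservative list, 0.418 with the strongest 50% of peaks, 0.667 with genes under 150 kb apart, 0.474 for clusters of 5 or more genes, 0.501 with 200 kb flanks, and 0.455 to 0.480 with 1 replicate alone. The strongest 50% of peaks left 38 inside, 37 in the flanks and 11 in the edge zones, and 0 of 25 type II promoters (0%). Promoters of 5 kb held summits at 8.77% of Krtap genes. Flanks of 50 and 200 kb held 31 and 130 peaks, and edge zones of 10 and 50 kb held 7 and 58. Median signal inside and in the flanks was 60.7 and 71.6 with the conservative list, 127 and 203 with the strongest 50%, and 58.4 and 93.0 for clusters of 5 or more genes. With 1 replicate alone it was 28.8 to 29.7 inside and 33.99 to 36.99 in the flanks, on the scale of that list. The flank median was 82.9 with 50 kb and 80.3 with 200 kb flanks. The cause was not tested. Type II promoters were bound at 4% of genes with either replicate alone or the conservative list, and at 24% with 5 kb windows, all within the wide interval of the main share. The values not printed stayed within the main share's interval, within 1.5 times the main count, or within the spread between the replicates. No paired analysis was possible because the series has 1 group. Depth is unknown and limits how firmly a missing peak can be read.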
